A study of Mus musculus with 12 samples.

Results

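The genes described here are Cd38, which encodes the main enzyme that splits NAD at the surface of lymphocytes, and 5 genes for enzymes that make NAD or NADP, namely Nampt, Nmnat1, Nmnat3, Nadsyn1 and Nadk. They are 6 of the 13283 genes whose expression was measured by RNA sequencing in mouse cytotoxic T lymphocytes (CTL), and all 6 had a row in the table. Cd38 was picked because its mRNA moved in opposite directions with a PI3K p110δ inhibitor in the 2 genotypes, so it was selected on its FPKM in all 4 groups, and its differences between groups are described below without a test. The other 5 were picked as enzymes of the same metabolism.

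CTL were CD8 T cells from female mice of 11 to 27 weeks, activated for 48 h with antibodies to CD3 and CD28 and then expanded in medium with 20 ng/mL of IL-2 plus 2 ng/mL of IL-12. All mice carried a Cre recombinase driven by the granzyme B promoter (GzmB cre+), which acts once T cells turn on granzyme B. The control genotype (WT) carried this Cre alone, and the FOXO1-GFP KO genotype (FOXO1-GFPfl/fl Gzmb cre+) also carried floxed, GFP-tagged Foxo1 alleles. From day 6, CTL of each genotype were given vehicle (DMSO) or 10 µM IC87114 (PI3Kdi), which blocks p110δ, the PI3K subunit prominent in leukocytes, for 24 h, which gave 4 groups of 3 libraries. Live CD8+ cells were sorted from WT cultures and live CD8+ cells without GFP from FOXO1-GFP KO cultures, so the genotype and the additional GFP gate cannot be told apart. Foxo1 mRNA was 5.77 to 10.46 FPKM in the 6 WT libraries and 0.58 to 1.75 FPKM in the 6 FOXO1-GFP KO libraries, with no overlap. All 10 CD8 T cell markers were in the table, with a summed level of 8926.5 to 12903.5 FPKM in a library. Most of this sum was Gzmb (7317.02 to 10955.02 FPKM), while Cd8a was 139.05 to 253.21 FPKM. Libraries held 12.9 to 48.0 M effective reads (M, 1e6; reads times their scaling factor, recovered from the spacing of low values).

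NAD carries electrons in metabolism and is also consumed by signalling enzymes, so cells have to remake it all the time. T cells rebuild most of it from nicotinamide: NAMPT makes nicotinamide mononucleotide in the limiting step, and the NMNAT enzymes join it to ATP to give NAD. CD38 works in the other direction. It is a membrane glycoprotein that hydrolyses NAD to nicotinamide and ADP-ribose or cyclises it to cyclic ADP-ribose, a calcium-releasing messenger, and it is widely used as a marker of activated and exhausted T cells.

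Levels are given as FPKM (fragments scaled to the exon length of the gene and to the depth of the library), a scale per length on which genes can be compared with each other. Nadk was the most abundant of the 6 mRNA in every group, with means of 34.3 to 37.0 FPKM, and Nampt was next with means of 20.3 to 27.6 FPKM. The other 4 genes lay well below both: with Cd38 they ran from 0.90 to 4.61 FPKM over the 12 libraries, while the lowest Nampt library was at 15.94 FPKM. Nmnat1 and Nadsyn1 had overlapping libraries in every group and could not be ordered. Cd38 came after them at a mean of 2.01 FPKM in each genotype without the inhibitor, above Nmnat3 with no overlap. With PI3Kdi its place changed: in WT CTL it lay among the Nmnat3 libraries, and in FOXO1-GFP KO CTL within reach of those of Nadsyn1 and Nmnat1.

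**Figure D1:**
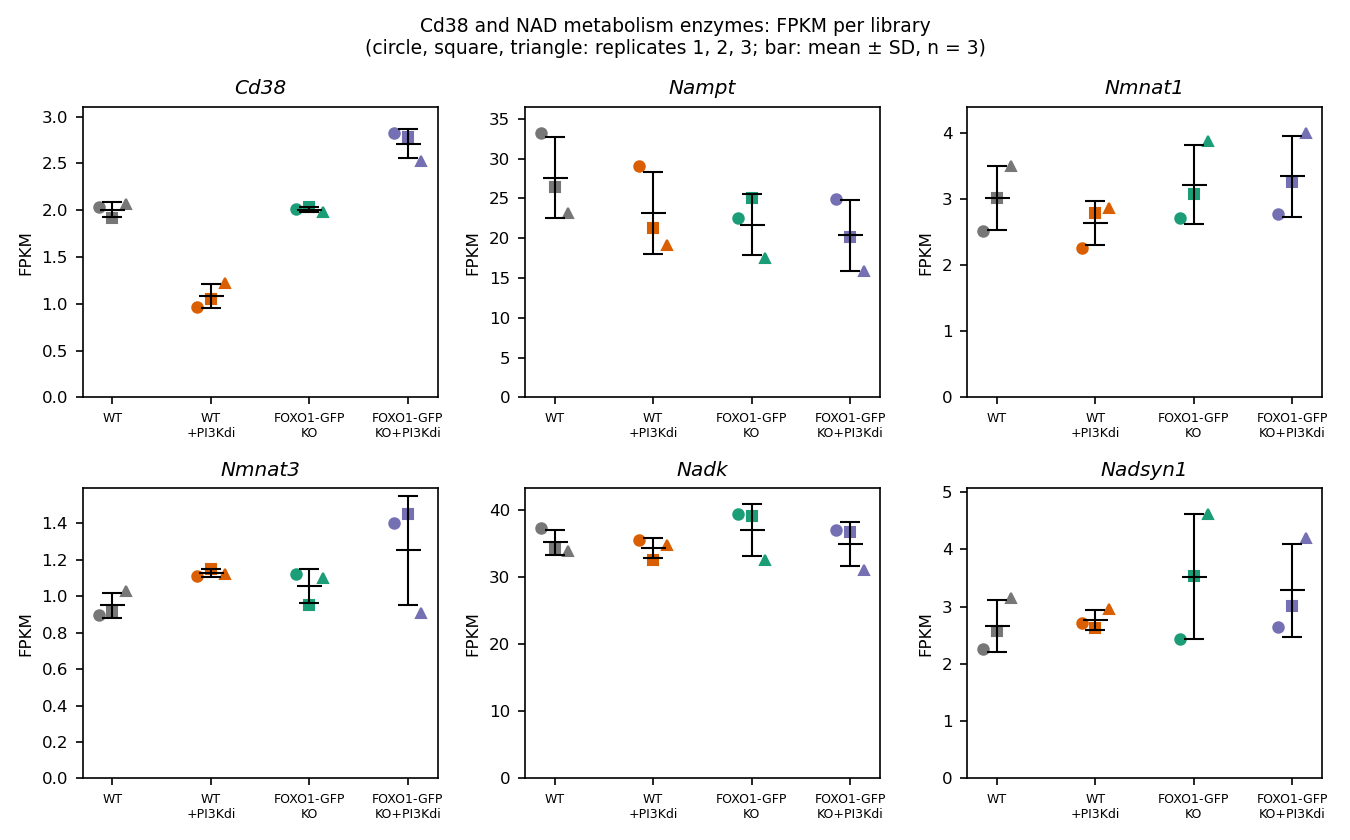
Level (FPKM, linear axes from 0) of the 6 genes in each of the 12 libraries, with the mean and SD of each group (n = 3). Cd38 was near 2 FPKM in both genotypes without PI3Kdi, near 1 FPKM in WT+PI3Kdi and at 2.53 to 2.82 FPKM in FOXO1-GFP KO+PI3Kdi, whereas the groups of Nampt, Nmnat1, Nadk and Nadsyn1 overlapped.

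Cd38 lies on chromosome 5 from 43868553 to 43912375 on the plus strand (GRCm38). The WT libraries held its mRNA at 2.03, 1.92 and 2.07 FPKM (replicates 1 to 3, the order used throughout) and the WT+PI3Kdi libraries at 0.97, 1.05 and 1.22 FPKM. All 3 libraries with the inhibitor were below all 3 without it, and the mean went from 2.01 ± 0.0777 to 1.08 ± 0.128 FPKM (SD, n = 3). The fold fitted on log2(FPKM + 0.1), which is not the ratio of these means, was 0.558. In FOXO1-GFP KO CTL the levels were 2.01, 2.03 and 1.98 FPKM without the inhibitor, and 2.82, 2.78 and 2.53 FPKM with it. Here all 3 libraries with the inhibitor were above all 3 without it, and the mean went from 2.01 ± 0.0252 to 2.71 ± 0.157 FPKM (SD, n = 3). The fold fitted in the same way was 1.33. Within replicate pairs, the log2 ratios of PI3Kdi to vehicle were -0.99, -0.81 and -0.72 in WT CTL. In FOXO1-GFP KO CTL they were 0.47, 0.44 and 0.34. The fitted difference between the 2 responses, on the log2(FPKM + 0.1) scale used for all fold changes here, was 1.26. These are the values that selected the gene. Gm16015, an antisense gene annotated across the locus, and Gm16014, a sense gene in an intron, had no row of their own. The kit kept the strand, but which strand setting the counts used is not given in the sources used here. The values rest on 62 to 359 estimated reads per library, and in bulk RNA a smaller share of cells that express Cd38 cannot be told from less Cd38 mRNA per cell.

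Of all 13283 genes, 251 (1.89%) were lower with PI3Kdi in every WT pair and higher in every FOXO1-GFP KO pair, as Cd38 was, and 151 (1.14%) did the reverse. A call throughout was an adjusted p under 0.05 (Benjamini-Hochberg over all genes, limma) with a fold change over 1.5. By this rule PI3Kdi gave 13 calls in WT CTL (0.0979%) and 6 in FOXO1-GFP KO CTL (0.0452%). These counts depend on single libraries: with one left out they were 1 to 10, lowest without WT replicate 2, and 0 to 4. For the difference of the 2 responses, limma called 0 genes, or 0% of those tested, while 200 had an unadjusted p under 0.05, and limma-voom on estimated reads also called 0. A fit with a replicate block within genotype, in which each vehicle library was paired with the PI3Kdi library of its number, called 3 genes for the difference (0.0226%), 342 with PI3Kdi in WT CTL (2.57%) and 370 in FOXO1-GFP KO CTL (2.79%).

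Averaged over both treatments, the fitted level of Cd38 was higher in the FOXO1-GFP KO libraries by 0.63 on the log2 scale (SE 0.0908, fold 1.55), again a description of a gene picked on these 4 groups. In this contrast 335 genes were called (2.52%), and 89 with the replicate block within genotype (0.67%). The average hides an uneven pattern: without PI3Kdi the libraries of the 2 genotypes interleaved and the log2 fold change was 0.00, and with PI3Kdi the FOXO1-GFP KO libraries (2.53 to 2.82 FPKM) were all above the WT libraries (0.97 to 1.22 FPKM), with a log2 fold change of 1.26. For comparison, 44 genes (0.331%) were called between genotypes without and 193 (1.45%) with PI3Kdi, and 31 (0.233%) and 157 (1.18%) with the replicate block.

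Cells other than CTL also carry CD38, B cells in particular. The summed level of the 8 B cell markers in the table was 20.0 to 27.2 FPKM in WT and 9.0 to 12 FPKM in FOXO1-GFP KO libraries, with no overlap. Ighm had the largest gap, at 7.61 to 12.98 FPKM in WT and 1.64 to 3.71 FPKM in FOXO1-GFP KO libraries. Averaged over treatments, Ighm, Igkc, Jchain, H2-Ab1 and Cd79b were lower in FOXO1-GFP KO (log2 fold changes -1.99, -3.19, -1.68, -0.64 and -0.40). Cd74, H2-Aa and H2-Eb1 were not (0.16, 0.40 and 0.05), so this sum does not measure the share of B cells. Cd79a, Ms4a1 and Pax5, which mark the lineage, had no row. Within a genotype the B cell sum overlapped between vehicle and PI3Kdi, but single members, named here after their values were seen, did not all do so. In WT CTL Ighm was 7.61 to 10.33 FPKM for vehicle and 11.05 to 12.98 FPKM for PI3Kdi. Igkc was at 0.30 to 1.68 and 1.38 to 2.84 FPKM, with 0 to 43 estimated reads over the 12 libraries. It was the 1 B cell marker of 8 called with the block (log2 fold change 1.35, adjusted p = 0.0294 by limma), beside 2.57% of all genes. The other members did not move together in WT CTL. Jchain, H2-Eb1 and Cd79b changed by 0.70, 0.28 and 0.02, and Cd74, H2-Ab1 and H2-Aa by -0.48, -0.42 and -0.19. In FOXO1-GFP KO CTL H2-Ab1 was 3.27 to 3.94 FPKM for vehicle and 2.21 to 3.21 FPKM for PI3Kdi. The sum of 7 of 12 myeloid markers was 63.9 to 122.3 FPKM and that of 3 of 6 NK cell markers was 992.0 to 1858.4 FPKM over all libraries, and both overlapped between the genotypes. Most of the NK cell sum was Nkg7 (907.64 to 1762.45 FPKM) and Eomes (81.82 to 111.53 FPKM). Klrb1c was 1.94 to 4.81 FPKM, and Ncr1, Klra8 and Klra4 had no row. The highest myeloid members were Cst3, Fcer1g and Cd68, and Lyz2, Csf1r, Adgre1, Csf3r and S100a8 had no row. Neither sum is therefore a measure of the share of such cells. The sum of 3 of 4 CD4 T cell markers was 5.0 to 8.2 FPKM. Most of this sum was Zbtb7b (4.32 to 6.90 FPKM). Cd4 was 0.44 to 0.57 FPKM for vehicle and 0.83 to 0.95 FPKM for PI3Kdi in WT CTL. It was called with the block (log2 fold change 0.69, adjusted p = 0.0413 by limma, 1 without it), beside 2.57% of all genes. Zbtb7b and Cd40lg changed by -0.09 and -0.05 in WT CTL and were not called. Finally, 0 of 6 erythroid markers had a row. The part of these cells in the Cd38 values was not tested.

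Nampt, on chromosome 12 from 32819545 to 32853349, encodes the limiting enzyme of NAD salvage. Its level was 33.18, 26.41 and 23.23 FPKM for vehicle and 29.07, 21.30 and 19.21 FPKM for PI3Kdi in WT CTL. The levels in FOXO1-GFP KO were 22.60, 25.03 and 17.54 FPKM for vehicle and 24.97, 20.13 and 15.94 FPKM for PI3Kdi. All 4 groups overlapped. The log2 fold change with PI3Kdi was -0.26 in WT CTL (95% interval -0.72 to 0.21, adjusted p = 1 by limma). That of FOXO1-GFP KO CTL was -0.10 (-0.56 to 0.36, adjusted p = 0.939). In WT CTL the inhibitor library was the lower in all 3 pairs, by log2 ratios of -0.19, -0.31 and -0.27, and the paired fit gave an adjusted p of 0.126.

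Nmnat1 and Nmnat3 encode the nuclear and the mitochondrial forms of the enzyme that completes NAD. Nmnat1 (chromosome 4, 149467572 to 149485202, minus strand) was 2.52, 3.02 and 3.49 FPKM for vehicle and 2.26, 2.79 and 2.86 FPKM for PI3Kdi in WT CTL. The levels of FOXO1-GFP KO CTL were 2.71, 3.07 and 3.87 FPKM for vehicle and 2.77, 3.26 and 3.99 FPKM for PI3Kdi. Each of the 3 WT pairs was lower with PI3Kdi and each of the 3 FOXO1-GFP KO pairs was higher, but by little: log2 ratios lay between -0.28 and -0.11 in WT CTL and between 0.03 and 0.08 in FOXO1-GFP KO CTL. The difference of the responses was 0.23 (95% interval -0.35 to 0.82, adjusted p = 1 by limma, and 0.523 with the replicate block).

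Nmnat3 (chromosome 9, 98287435 to 98420438) was the least abundant of the enzymes. It was 0.90, 0.92 and 1.03 FPKM for vehicle and 1.11, 1.15 and 1.12 FPKM for PI3Kdi in WT CTL, and these 2 groups did not overlap. FOXO1-GFP KO CTL had 1.12, 0.95 and 1.10 FPKM for vehicle and 1.40, 1.45 and 0.91 FPKM for PI3Kdi, where the third library was the lowest of all 6. The log2 fold changes with PI3Kdi, 0.23 in WT CTL (95% interval -0.16 to 0.61) and 0.20 in FOXO1-GFP KO CTL (-0.18 to 0.59), had an adjusted p of 1 and 0.933 by limma.

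Nadsyn1 (chromosome 7, 143795584 to 143822849, minus strand) encodes NAD synthetase, which finishes the routes that start from nicotinic acid and tryptophan. It was 2.26, 2.58 and 3.15 FPKM for vehicle and 2.72, 2.62 and 2.96 FPKM for PI3Kdi in WT CTL. FOXO1-GFP KO libraries had 2.43, 3.53 and 4.61 FPKM for vehicle and 2.65, 3.01 and 4.20 FPKM for PI3Kdi. Replicate 3 was the highest of every group and all groups overlapped. The genotype difference averaged over treatments was 0.29 on the log2 scale (95% interval -0.08 to 0.65, adjusted p = 0.488 by limma).

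Nadk (chromosome 4, 155562378 to 155591001) encodes NAD kinase, which turns NAD into NADP. Its level was 37.27, 34.29 and 33.90 FPKM for vehicle and 35.46, 32.57 and 34.81 FPKM for PI3Kdi in WT CTL. The levels of FOXO1-GFP KO CTL were 39.31, 39.09 and 32.55 FPKM for vehicle and 36.97, 36.70 and 31.10 FPKM for PI3Kdi. The highest library was 1.26 times the lowest, the narrowest range of the 6 genes. Its interval was also the narrowest: the log2 fold change with PI3Kdi was -0.04 in WT CTL (95% interval -0.26 to 0.19) and -0.08 in FOXO1-GFP KO CTL (-0.31 to 0.15), which leaves out changes of 1.5-fold in either direction.

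None of these 5 enzymes was called in any of the 6 contrasts, with or without the replicate block. The share of all genes called was 0 to 2.79% over these fits, so 0 of 5 is near it. The variation over the 12 libraries was then divided by source. Of the sum of squares of Cd38, 46.1% lay between genotypes, 46.0% in the interaction of genotype and inhibitor, and 1.67% between pairs of one genotype. The pairs held 81.9% for Nadk, 69.0% for Nmnat1, 67.9% for Nadsyn1 and 61.5% for Nampt. For Nmnat3 they held 21.8%, and 38.4% was left to single libraries. The Cd38 shares follow from the choice of the gene and are a description.

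**Figure D2:**
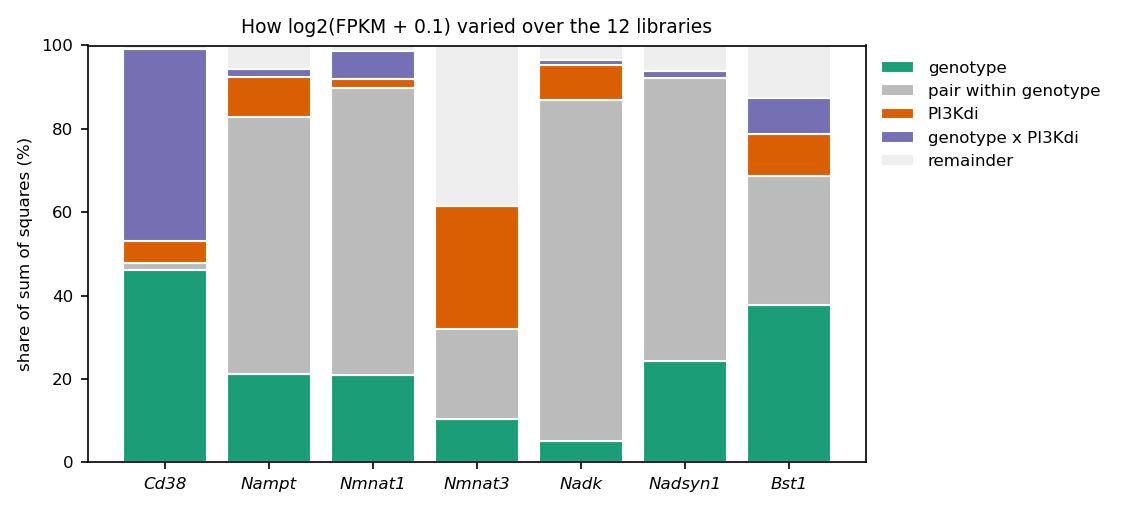
Share of the sum of squares of log2(FPKM + 0.1) over the 12 libraries (percent, linear axis) that lay between genotypes, between pairs within a genotype, with PI3Kdi, in their interaction, or in the remainder. Pairs took 61.5 to 81.9% for Nampt, Nmnat1, Nadk and Nadsyn1 and 1.67% for Cd38.

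Bst1, the paralogue of Cd38 that encodes a second ADP-ribosyl cyclase (CD157), ends 24567 bp before Cd38 starts (chromosome 5, 43818885 to 43843986). It was 1.31, 1.11 and 0.76 FPKM for vehicle and 0.90, 1.21 and 1.06 FPKM for PI3Kdi in WT CTL, which overlapped. FOXO1-GFP KO CTL had 1.25, 1.69 and 0.94 FPKM for vehicle and 2.01, 2.14 and 1.38 FPKM for PI3Kdi. All 3 FOXO1-GFP KO pairs were higher with PI3Kdi, by log2 ratios of 0.64, 0.32 and 0.51, but those of WT CTL were -0.50, 0.12 and 0.43. Bst1 therefore had the direction of Cd38 in FOXO1-GFP KO CTL and no common direction in WT CTL. Its log2 fold changes were 0.49 in FOXO1-GFP KO (adjusted p = 0.933 by limma, 0.0613 with the replicate block) and 0.02 in WT CTL (adjusted p = 1), and their difference was 0.48 (95% interval -0.31 to 1.26, adjusted p = 1). Of the 8 protein-coding genes annotated within 500 kb of Cd38, Fbxl5 and Tapt1 were the others in the table. Fbxl5 changed by -0.04 and 0.03, and Tapt1 by -0.16 and 0.01 (WT first, then FOXO1-GFP KO), and neither was called.

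**Figure D3:**
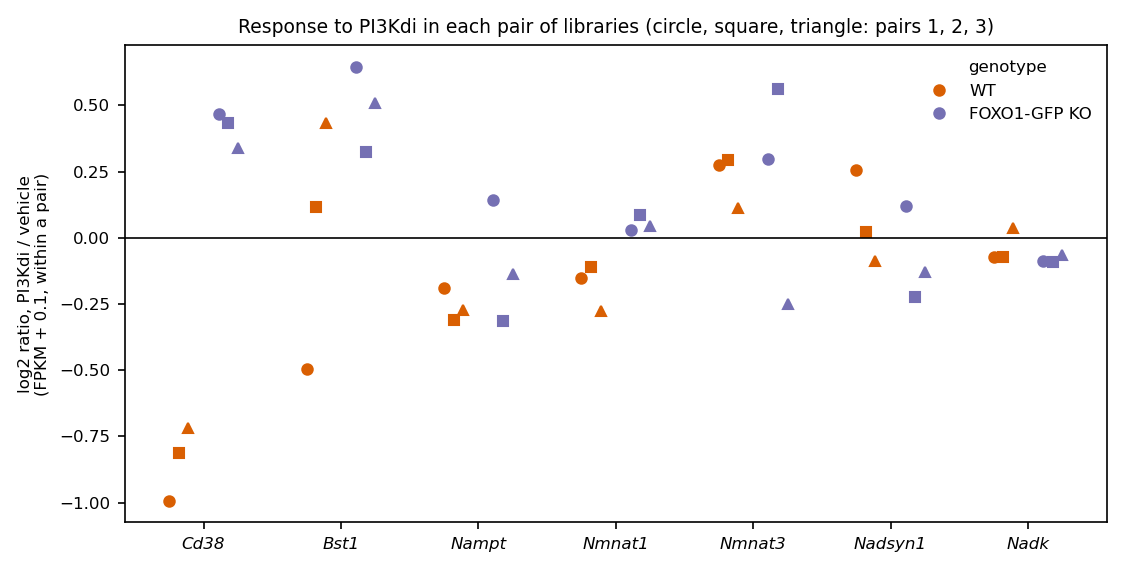
log2 ratio of PI3Kdi to vehicle (FPKM + 0.1) within each replicate pair, for Cd38, its paralogue Bst1 and the 5 enzymes; orange points are WT and purple points FOXO1-GFP KO pairs, and the line marks no change. For Cd38 the WT pairs lie at -0.99 to -0.72 and the FOXO1-GFP KO pairs at 0.34 to 0.47, apart from each other, whereas those of Nampt, Nmnat3, Nadsyn1, Nadk and Bst1 overlap between the genotypes.

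The wider NAD metabolism was followed with 72 listed genes, of which 57 were in the table, Cd38 included. Among the 56 others, 0 were called with PI3Kdi in either genotype by limma. The shares of all genes called were 0.0979% in WT CTL and 0.0452% in FOXO1-GFP KO CTL, so 0 of 56 is near them. An unadjusted p under 0.05 was held by 2 in WT CTL and 1 in FOXO1-GFP KO CTL, and limma-voom also called 0. The median log2 fold change was -0.02 in WT CTL and 0.09 in FOXO1-GFP KO CTL, beside -0.04 and -0.02 over all genes. For the difference of the responses 0 of the 56 were called, with or without the block, beside 0.0226% of all genes with it and 0% without. At an unadjusted p under 0.05 there were 8 with the block and 2 without, and limma-voom called 0. Naprt, Nmnat1 and P2rx7, 3 of the 56, shared the direction of Cd38 in every pair, and 0 of the 56 had the reverse. Of all genes, 1.89% shared it and 1.14% had the reverse, and these counts were not tested.

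With the replicate block, 3 of the 56 were called with PI3Kdi in WT CTL, 2 higher and 1 lower (5.36%, beside 2.57% of all genes), and 1 was called in FOXO1-GFP KO CTL (1.79%, beside 2.79%). Tiparp, a mono-ADP-ribosyltransferase that is a known target of the aryl hydrocarbon receptor, was called in both genotypes. It was 8.77, 5.71 and 6.43 FPKM for vehicle and 14.59, 9.35 and 8.95 FPKM for PI3Kdi in WT CTL. The levels of FOXO1-GFP KO CTL were 4.70, 5.02 and 3.37 FPKM for vehicle and 7.84, 8.85 and 5.10 FPKM for PI3Kdi. It rose in every pair. The log2 fold change was 0.63 in WT CTL (adjusted p = 0.00435 by limma with the block, 0.841 without) and that of the FOXO1-GFP KO was 0.71 (0.00256 and 0.792).

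Nt5e encodes CD73, the surface enzyme that makes adenosine from AMP, the last step of a route on which CD38 starts from NAD. It was 1.49, 0.96 and 1.66 FPKM for vehicle and 3.61, 2.14 and 4.10 FPKM for PI3Kdi in WT CTL, which did not overlap. FOXO1-GFP KO CTL had 0.40, 1.26 and 1.92 FPKM for vehicle and 0.55, 2.25 and 3.14 FPKM for PI3Kdi. It rose by 1.19 in WT CTL (adjusted p = 0.00947 by limma with the block, 1 without). Its change in FOXO1-GFP KO CTL was 0.62 (adjusted p = 0.103 with the block), and the difference between the genotypes was not called (-0.57, adjusted p = 0.568 with the block). Naprt, which starts NAD synthesis from nicotinic acid, was the gene called lower in WT CTL (-0.59, adjusted p = 0.0269 with the block, 0.961 without), but at 0.09 to 0.37 FPKM and 4 to 27 estimated reads per library.

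Of the enzymes that spend NAD inside the cell, Tiparp was the one called with PI3Kdi, with the block. The 15 PARPs ranged from -0.14 to 0.63 with PI3Kdi in WT CTL and the 7 sirtuins, which are NAD-dependent deacylases, from -0.19 to 0.11. In FOXO1-GFP KO CTL these ranges were -0.28 to 0.71 and -0.15 to 0.21. The 9 genes of NAD synthesis, the 5 enzymes included, had a median of -0.14 in WT CTL and one of 0.09 in FOXO1-GFP KO CTL. Among the 7 targets of CD38 products, Tpcn1, a lysosomal channel opened by NAADP, was 7.27, 6.83 and 6.14 FPKM for vehicle and 9.92, 8.46 and 9.16 FPKM for PI3Kdi in WT CTL, with no overlap. This was 0.44 on the log2 scale (adjusted p = 0.311 by limma, 0.00143 with the block) and under the fold needed for a call. In FOXO1-GFP KO CTL its change was 0.07, and the difference, -0.37, was not called (adjusted p = 1, and 0.134 with the block).

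**Figure D4:**
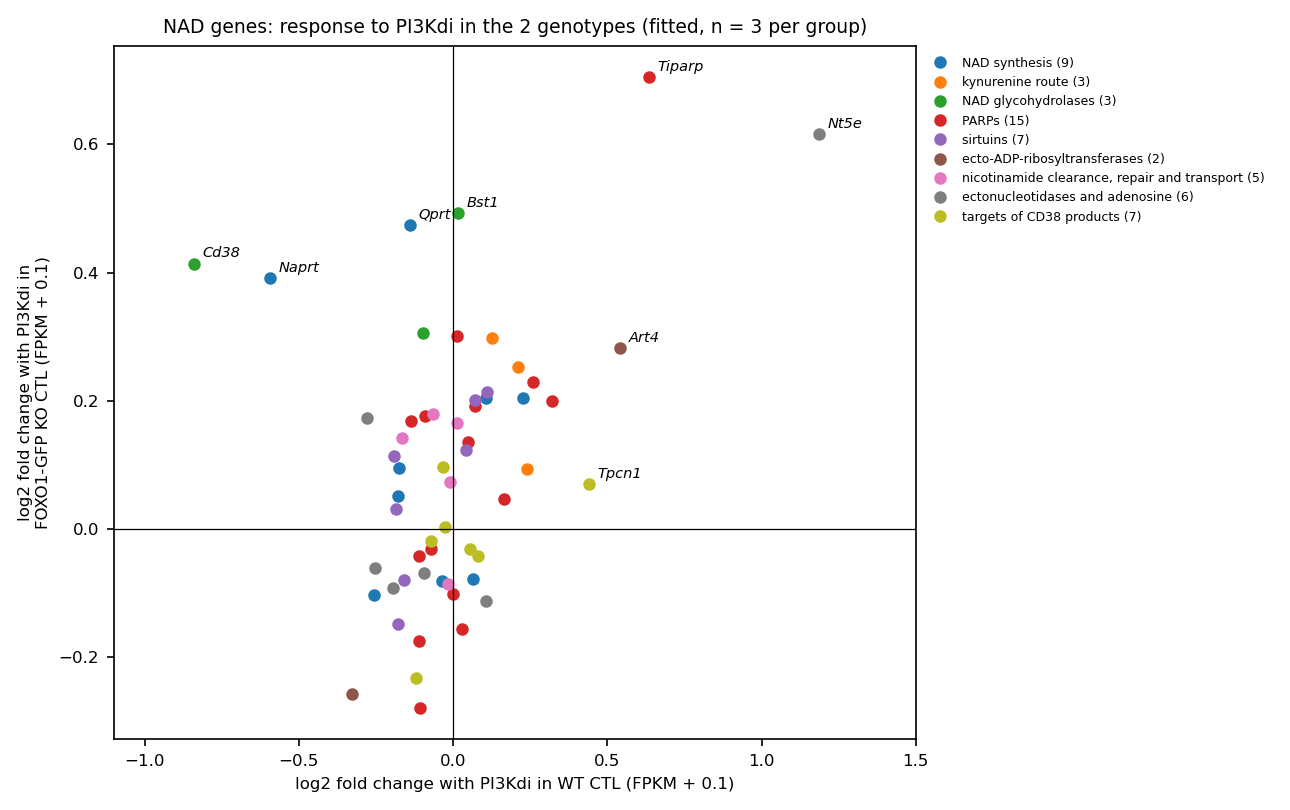
Fitted log2 fold change with PI3Kdi (FPKM + 0.1) of the 57 NAD genes in WT CTL (x axis) and in FOXO1-GFP KO CTL (y axis), coloured by list with the number of genes in the table. Cd38 lies farthest to the left, at -0.84 and 0.41, a place that follows from how it was picked, and Tiparp and Nt5e lie at the upper right.

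Between genotypes, averaged over treatments, 3 of the 56 genes were called without the replicate block (5.36%, beside 2.52% of all genes) and 0 with it (beside 0.67%, and 6 at an unadjusted p under 0.05). P2rx7 encodes an ATP-gated channel of T cells that extracellular NAD can also open, through ADP-ribosylation by ART2 enzymes, when CD38 has not consumed that NAD. It was 2.29, 1.44 and 1.44 FPKM for vehicle and 1.88, 1.09 and 1.25 FPKM for PI3Kdi in WT CTL. The FOXO1-GFP KO libraries had 0.49, 0.87 and 0.76 FPKM for vehicle and 0.67, 0.93 and 0.79 FPKM for PI3Kdi, so all 6 FOXO1-GFP KO libraries were below all 6 WT libraries. The log2 fold change was -0.95 (SE 0.186, adjusted p = 0.0171 by limma, 0.109 with the block). Art2b, the ART2 gene in the table, was 0.70 to 1.48 FPKM over the 12 libraries and was not called in any contrast.

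Parp8, a mono-ADP-ribosyltransferase, was also lower in FOXO1-GFP KO CTL. It was 1.98, 1.54 and 1.53 FPKM for vehicle and 2.12, 2.06 and 2.16 FPKM for PI3Kdi in WT CTL, against 1.0 to 1.17 FPKM in FOXO1-GFP KO and 1.02 to 1.65 FPKM in FOXO1-GFP KO+PI3Kdi. The log2 fold change was -0.62 (adjusted p = 0.0223 by limma, 0.361 with the block). Kmo, an enzyme of the kynurenine route from tryptophan to NAD, was higher in FOXO1-GFP KO CTL. It was 1.15 to 1.72 FPKM in the 6 WT libraries and 1.51 to 2.85 FPKM in the 6 FOXO1-GFP KO libraries, and its log2 fold change was 0.61 (adjusted p = 0.0459 by limma, 0.422 with the block). When each of the 12 libraries was left out in turn, P2rx7 stayed called in 12 fits, Parp8 in 7 (adjusted p 0.0114 to 0.0565 by limma) and Kmo in 2 (0.0264 to 0.117). These fits had no block and kept the other library of the pair. They counted the 2 libraries of a pair as independent, although paired deviations correlated at 0.594 to 0.838. Such fits do not measure how far the calls hold between pairs, and with the block 0 of the 3 were called. With a pseudocount of 1 FPKM 0 of the 3 were called, since the log2 fold changes of P2rx7, Parp8 and Kmo were then -0.54, -0.39 and 0.40, under the fold needed. The B cell marker sum, which does not measure the share of such cells, moved with genotype here too. The part of B cells in these values was not tested. Between genotypes without PI3Kdi and with PI3Kdi taken alone, 0 of the 56 were called by limma with or without the block. The shares of all genes were 0.331% and 1.45% without the block, and 0.233% and 1.18% with it. At an unadjusted p under 0.05 there were 4 and 8 without the block, and 5 and 7 with it. Limma-voom called 0 and 1, the latter being Tpcn1.

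The pattern of Cd38 over the 12 libraries was most like that of Il21r, with a Pearson correlation of 0.969 among the 10370 genes that averaged at least 1 FPKM. Il21r encodes the receptor for interleukin-21 and was far more abundant. It was 76.73, 77.56 and 75.58 FPKM in WT CTL, 63.92, 68.41 and 71.40 FPKM in WT+PI3Kdi, 76.74, 77.79 and 78.37 FPKM in FOXO1-GFP KO, and 81.97, 82.85 and 82.38 FPKM in FOXO1-GFP KO+PI3Kdi. As for Cd38, the WT+PI3Kdi libraries were the lowest and the FOXO1-GFP KO+PI3Kdi libraries the highest, without overlap with the groups between. The changes were much smaller than those of Cd38, at -0.18 and 0.09 on the log2 scale. Fahd1, Arl4a, Cnot8 and Selenom followed, with correlations of 0.862, 0.854, 0.852 and 0.845. These correlations are descriptions over 12 libraries in 4 groups, ranked from all genes, and the 12 points share their groups and pairs.

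**Figure D5:**
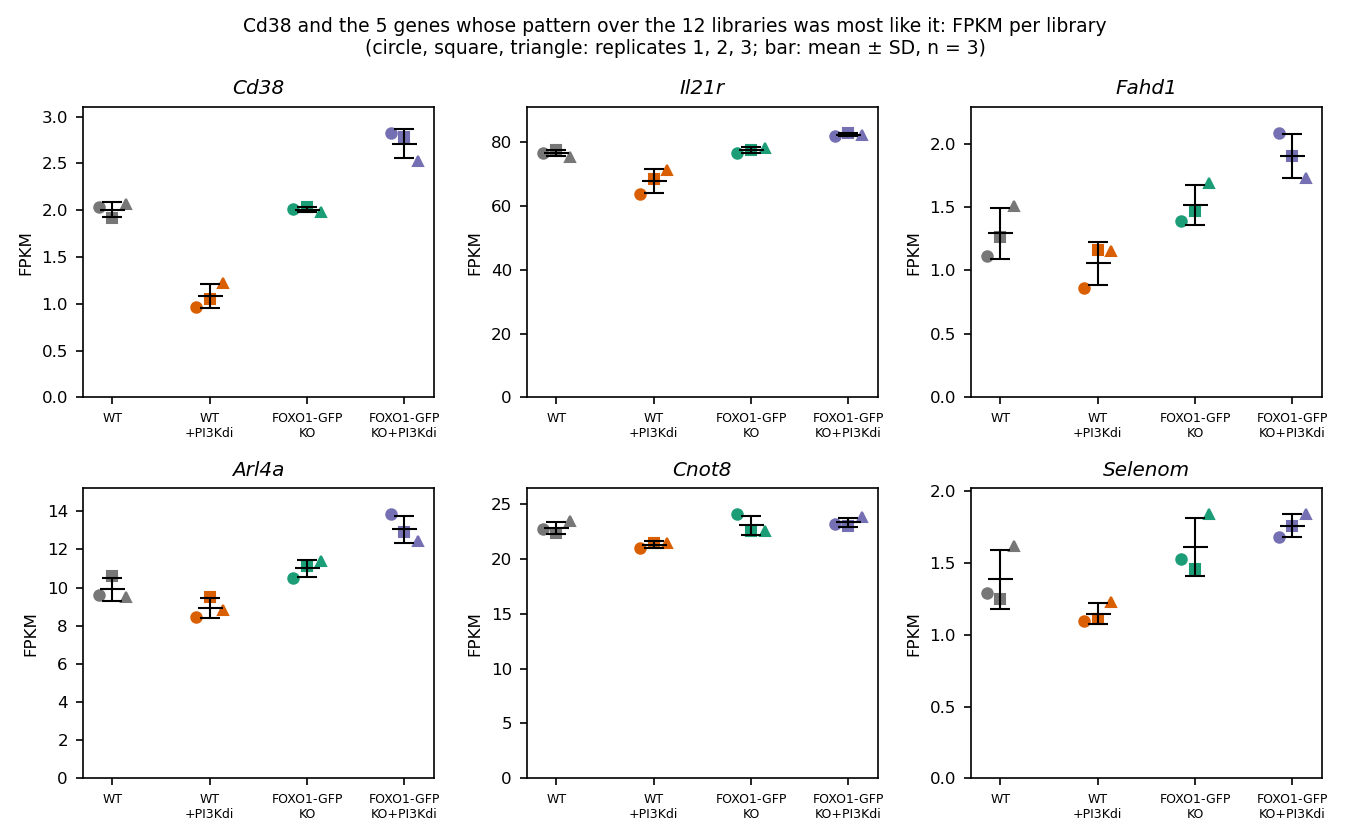
Level (FPKM, linear axes from 0) of Cd38 and of the 5 genes with the most similar pattern in each of the 12 libraries, with group means and SD (n = 3). In both Cd38 and Il21r, WT+PI3Kdi is the lowest group and FOXO1-GFP KO+PI3Kdi the highest, with the vehicle groups between them, while the range of Il21r, 63.92 to 82.85 FPKM, is narrow for its level.

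The promoter windows of the 6 genes (8 RefSeq windows on GRCm38.p6, from 250 bp before to 50 bp after a transcription start) were searched on both strands for 2 forkhead motifs, GTAAACA and CAAAACA, which do not contain each other. Neither was found in any of the 8 windows, and over all 32851 windows the shares with a match were 3.65% and 6.28%. The windows follow RefSeq starts: those of Cd38, Nampt and Nmnat3, and 1 of the 2 of Nadk, lie inside the gene spans given above, so the sequence before those spans was not searched. The result says only that these letters do not occur in these windows.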

How the data were processed

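The authors aligned reads with STAR 2.7.1a to GRCm38.p6, counted them per gene, filtered low genes and scaled libraries in edgeR (TMM), and deposited FPKM rounded to 2 decimals for 13283 genes. Genes that did not reach that filter were not analysed here. The members and gene lists were chosen with earlier results of these data known. From the deposited FPKM, log2(FPKM + 0.1) was fitted with limma 3.58.1 (R 4.3.3; 4 group means, trended empirical Bayes, 6 contrasts). Named genes were the 6 members, genes of the NAD lists, the 5 genes most correlated with Cd38, and annotated neighbours within 500 kb. Positions came from GENCODE M21. Depth was recovered from genes of up to 400 bp: in held-out genes of 400 to 800 bp, 97.1 to 100.0% of values were whole reads within 0.15, against 30.0% by chance, and voom was run on these reads. When 200 of the 13283 genes were simulated with a log2 change of 1 under PI3Kdi in WT, the fit recovered 65.5% of them, and 95.0% with the replicate block. The changed genes were drawn from those that averaged at least 1 FPKM. Every gene was simulated with effects of the same pairs that the block uses, so the gain with the block follows from this setting.

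Replicate numbers come from the labels, in which no mouse is named for a pair. Deviations of paired libraries correlated at 0.594 to 0.838 within a genotype, and at -0.409 to 0.730 between genotypes, so pairs were taken within a genotype. P-values otherwise measure the spread between 3 libraries a group.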

Additional observations from a re-analysis of the deposited data

Results flagged for a closer look

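Besides Cd38, 3 of the 56 other NAD genes were lower with PI3Kdi in every WT pair and higher in every FOXO1-GFP KO pair. This pattern was held by 1.89% of all genes, and the count was not tested. The difference of the responses, on the log2(FPKM + 0.1) scale, was 1.26 for Cd38, which was picked for it and was not tested. It was 0.98 for Naprt (adjusted p = 1 by limma, 0.0966 with the replicate block), 0.45 for P2rx7 (1 and 0.355) and 0.23 for Nmnat1 (1 and 0.523). Among the genes ranked by their likeness to Cd38, a choice that favours this pattern, it was 0.26 for Il21r, 0.58 for Fahd1 and 0.39 for Arl4a, with no test since the ranking used these values. Groups of 3 libraries were too small to look for single outlying samples.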

How the results depend on the processing

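Counts of called mRNA depended most on the pairing. With the replicate block within genotype, 342 mRNA were called with PI3Kdi in WT, 370 in FOXO1-GFP KO, 3 for the difference of the responses and 89 between genotypes averaged over treatments. With a block shared by all groups, the counts were 99, 42, 504 (averaged genotype), 178 (genotype without PI3Kdi) and 440 (genotype with PI3Kdi). voom on estimated reads called 22 with PI3Kdi in WT, a pseudocount of 1 FPKM called 145 in the averaged genotype contrast, and a minimum mean of 1 FPKM called 192 there and 111 with PI3Kdi. Leaving out a library in turn gave 1 to 10 mRNA with PI3Kdi in WT, 0 to 4 in FOXO1-GFP KO, 0 to 0 for the difference, 240 to 306 in the averaged genotype contrast, 8 to 41 without and 111 to 196 with PI3Kdi. The lowest count in WT was without WT replicate 2, and the lowest without PI3Kdi was without FOXO1-GFP KO replicate 2.

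Of the 56 NAD genes other than Cd38, the replicate block within genotype called 3 with PI3Kdi in WT, 1 in FOXO1-GFP KO and 0 in the averaged genotype contrast, where a pseudocount of 1 FPKM also called 0. The shared block called 1 between genotypes without PI3Kdi (P2rx7) and 2 with it (Kmo and Parp8). voom and median-of-ratios scaling each called 1 there (Tpcn1, at a log2 fold change of -0.58 without these settings). Leaving out a library gave 1 to 3 in the averaged genotype contrast, with Kmo lost in 10 fits and Parp8 lost without WT replicate 1, WT+PI3Kdi replicate 3, FOXO1-GFP KO replicate 3 and FOXO1-GFP KO+PI3Kdi replicates 1 and 3. The cause was not tested.

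The averaged genotype difference of Cd38, a description, was 0.63, with values of 0.42 with a pseudocount of 1 FPKM (by construction a smaller fold) and 0.59 to 0.67 without single libraries. That pseudocount also gave a response in WT of -0.53. The 30 fold changes of the 5 enzymes were called in 0 of 540 alternative fits and changed sign in 23, all within 0.18 of zero. These were voom for Nmnat3 in the difference of the responses (0.0057) and fits without single libraries. With PI3Kdi in WT those ran from -0.061 to 0.0069 for Nadk and -0.044 to 0.19 for Nadsyn1. In FOXO1-GFP KO they ran from -0.26 to 0.061 for Nampt, -0.08 to 0.19 for Nmnat1 and -0.31 to 0.13 for Nadsyn1. For the difference they ran from -0.0039 to 0.33 for Nampt, -0.13 to 0.18 for Nmnat3, -0.14 to 0.035 for Nadk and -0.38 to 0.070 for Nadsyn1. Between genotypes they ran from -0.048 to 0.20 for Nmnat1 without and from -0.02 to 0.10 for Nadk with PI3Kdi. Of the shifts that median-of-ratios scaling gave to the contrasts, the largest was -0.031 on the log2 scale, with PI3Kdi in WT.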
